A study of Homo sapiens with 30 samples.

Results

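TRiC, also called CCT, is the cytosolic chaperonin, and the genes described here are those of its 8 ubiquitous subunits. TCP1 encodes the alpha subunit, CCT2 beta, CCT3 gamma, CCT4 delta, CCT5 epsilon, CCT6A zeta, CCT7 eta and CCT8 theta. They were taken by symbol as 8 of the 57992 genes in the expression table, and all 8 passed the filter on low values in every comparison. The chaperonin is a barrel of stacked rings in which each ring holds every subunit side by side, and ATP binding and hydrolysis close a built-in lid over a folding protein. Actin and tubulin depend on it, as do several WD40-repeat proteins such as CDC20, and prefoldin hands it unfolded chains. Because a ring needs each subunit, the balance among the transcripts was examined beside their level.

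RNA was sequenced from HCT116 cells, a human colorectal carcinoma line, and from Ramos cells, a human Burkitt lymphoma B cell line. Treated cells received Omomyc, a miniprotein made from the dimerization and DNA-binding region of MYC, which dimerizes with MYC and MAX and occupies E boxes. HCT116 cells were untreated or received 2 or 10 μM Omomyc for 6 or 24 h, and Ramos cells were untreated or received 0.5 or 2.5 μM for 6 or 24 h. This gave 10 groups of 3 libraries each, 30 in all, with 15 per line. The labels give 2 μM for the lower HCT116 dose where the study's methods give 2.5 μM, and the lower dose is written here as labelled. One label field reads 4 h for libraries whose titles give 24 h, and the title's time was used. The methods describe delivery to HCT116 cells with ProteoJuice, a protein transfection reagent. Whether untreated HCT116 cells received the reagent is not clear from them, and no reagent is described for Ramos RNA. Each line had 1 untreated group with no stated time point, so all treated groups of a line shared the same 3 control libraries. Each line stands for its cell type as a single line, and the labels do not say that replicates were separate cultures, so p-values measure only the spread between these libraries. A value in such bulk RNA is an amount per unit of total RNA, so fewer cells of a type and less RNA per cell cannot be told apart.

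Values are RPKM, reads per kilobase of transcript scaled to the size of its library, so levels of different genes can be set side by side. Depth in reads is unknown. The 5 epithelial markers summed to 1414 to 2231 RPKM in HCT116 libraries and to at most 1.74 in Ramos, while the 5 B cell markers summed to 1158 to 1402 in Ramos and to at most 0.449 in HCT116. 1 library stood apart. In HCT116 10 μM 6 h replicate 3 all RPKM summed to 1051041, against at most 836899 in the other HCT116 libraries, the single gene RN7SL1 took 19.7% of that sum, and the low values gave a relative read number of 0.476 of that of the first untreated HCT116 library. Subunits called at 10 μM 6 h against untreated cells, and between times at 10 μM, are given with and without this library. Most other results that use it are given with it only. Among these are the dose comparison at 6 h, the correlations between genes and the counts for related gene lists.

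The 8 genes lie on 7 chromosomes (GENCODE 29, GRCh38). TCP1 is at chr6:159778498-159789749 on the minus strand, CCT2 at chr12:69585334-69601570 on the plus strand, CCT3 at chr1:156308968-156367873 on the minus strand and CCT4 at chr2:61868089-61888804 on the minus strand. CCT5 is at chr5:10249921-10266412, CCT6A at chr7:56051630-56063989 and CCT7 at chr2:73233420-73253021, all on the plus strand, and CCT8 is at chr21:29055805-29073797 on the minus strand. Promoter windows from RefSeq (GRCh38.p14, 250 bases before to 50 after a gene's start) were matched for 7 of the 8 genes, as 9 windows. Motif positions are counted from these RefSeq starts, which can differ from the ends of the GENCODE spans above. The CCT3 window, chr1:156338243-156338542, lies inside the GENCODE span of CCT3. Omomyc binds E boxes, so CACGTG, the E box of MYC and MAX dimers, was searched on both strands, beside CCAAT, the box bound by NF-Y, and 3 other motifs. CACGTG was found in 0 of the 9 windows, against 7.256% of all 35116 windows. CCAAT was found in 4 of 9 against 34.61% of all windows, the ETS core CGGAAG in 6 of 9 against 19.46%, the GC box GGGCGG in 6 of 9 against 44.95%, and GAANNTTC, a pair of inverted heat shock units, in 2 of 9 against 6.769%. These matches describe letters in a window and are not binding sites. The CCAAT boxes of CCT3, TCP1, CCT2 and CCT8 are printed with 12 bases on each side, so that the letters around a motif that several members hold can be compared. The box is in capitals, reads ATTGG where it lies on the strand opposite to the gene, and all are written 5′ to 3′ on the gene's own strand.
CCT3, chr1:156338351-156338379, minus strand, box 75 bases before the start: ctaaggctgtcaATTGGtctgtttttgtg
CCT3, chr1:156338310-156338338, minus strand, box 34 bases before the start: atgggtgcggtgATTGGcgactaccttga
TCP1, chr6:159789740-159789768, minus strand, box 154 bases before the start: atcggctatctaATTGGacaaaaatgccg
CCT2, chr12:69585356-69585384, plus strand, box 91 bases before the start: gcccgtggggctCCAATcaaaatgggacg
CCT8, chr21:29073695-29073723, minus strand, box 63 bases before the start: aagggtgggctaATTGGagagccaggaag
Over their whole length the flanks differed between the genes, though next to the box some letters were shared. TCP1 and CCT8 both read ctaATTGGa, and CCT2, read on the opposite strand, shares ATTGGag with CCT8. In CCT3, TCP1 and CCT8 the box was on the opposite strand, while in CCT2 it was on the gene's strand.

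All 8 subunit transcripts were abundant in every library, at 113 to 472 RPKM, and the highest stood between 2.25 and 2.57 times above the lowest in untreated cells. In untreated HCT116 cells the order from high to low was CCT3 at 429 ± 7.51 RPKM (SD, n = 3 here and in every group below), CCT5 at 362 ± 3.08, CCT7 at 301 ± 5.30, TCP1 at 299 ± 9.40, CCT2 at 295 ± 1.17, CCT8 at 252 ± 2.66, CCT4 at 187 ± 1.48 and CCT6A at 184 ± 6.43. CCT7, TCP1 and CCT2 overlapped in their libraries, as did CCT4 and CCT6A, and the other neighbours in this order did not overlap. In untreated Ramos cells the order was CCT5 at 309 ± 10.8 RPKM, CCT3 at 286 ± 2.20, CCT8 at 274 ± 2.08, CCT2 at 232 ± 6.07, CCT7 at 216 ± 5.53, TCP1 at 215 ± 3.80, CCT6A at 130 ± 2.63 and CCT4 at 122 ± 4.12. Here only CCT7 and TCP1 overlapped. The gamma and epsilon subunits thus led and the delta and zeta subunits came last in both lines, while theta came below 5 other subunits in HCT116 and below 2 in Ramos.

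**Figure D1:**
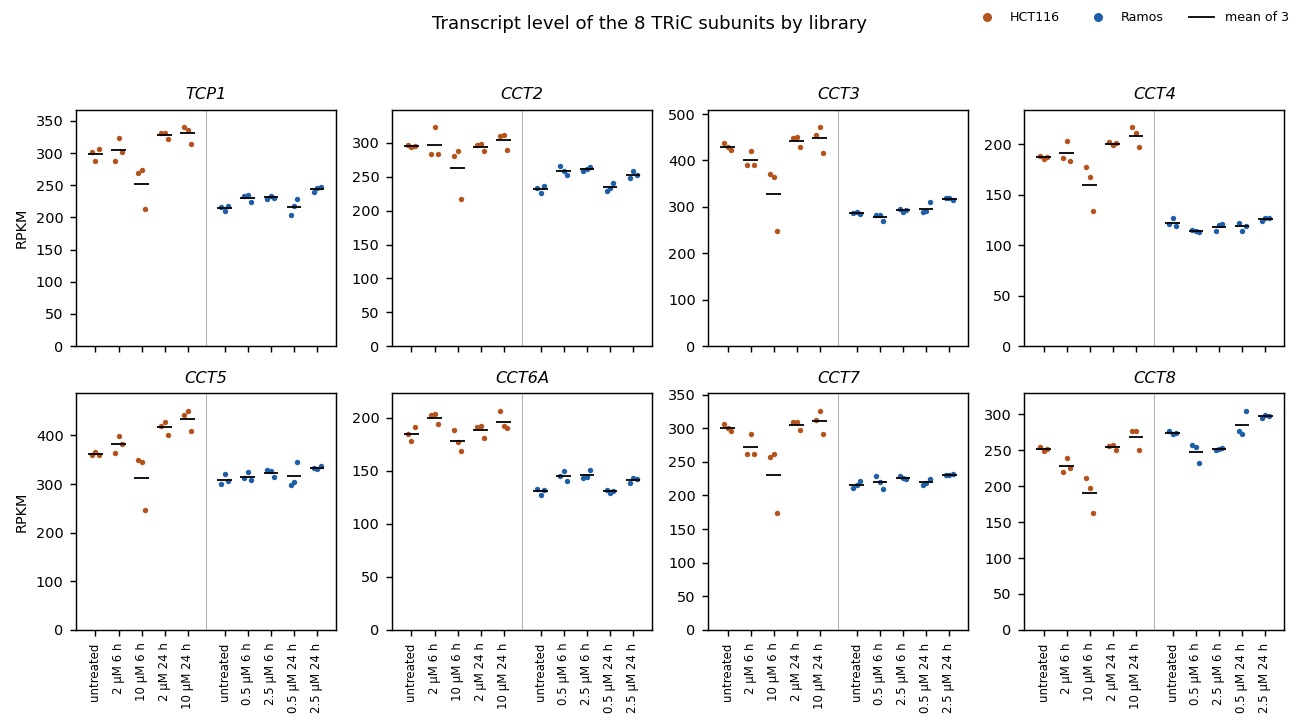
RPKM (linear axis from 0) of each of the 8 subunits in the 30 libraries, 1 panel a gene, with groups along the horizontal axis; points are libraries and bars are the means of 3. In untreated cells HCT116 stood above Ramos for 7 genes and CCT8 was close in both lines. At 6 h CCT8 means were 228 and 190 RPKM in HCT116 and 248 and 252 in Ramos, lower dose first. The 10 μM 6 h group of HCT116 was spread by 1 low library, and its CCT5 mean of 313 RPKM lay within the range of the Ramos means.

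Of the 8 subunits 7 were higher in untreated HCT116 than in untreated Ramos cells, and CCT8 was lower. CCT4, the delta subunit, was at 187, 185 and 188 RPKM in HCT116 and at 121, 127 and 119 in Ramos, with no overlap. On the log2(RPKM + 0.5) scale, used for all differences below, it was higher by 0.61 ± 0.04 (SE; limma adjusted p = 3.66e-06). CCT3 was higher by 0.58 ± 0.03 (adjusted p = 2.16e-06), CCT6A by 0.50, CCT7 by 0.48, TCP1 by 0.47, CCT2 by 0.35 and CCT5 by 0.23 ± 0.04 (adjusted p = 9.85e-04). CCT8 was at 252, 249 and 254 RPKM in HCT116 and at 276, 272 and 274 in Ramos, and the groups did not overlap. It was lower in HCT116 by a log2 difference of -0.12 ± 0.03 (adjusted p = 0.00836), which became 0.45 when all libraries were rescaled to an equal sum, a scaling that set the median of all genes at 0.62 instead of 0.09. All 8 members were called, where 84.6% of all genes tested were (45.7% higher, 39% lower), and all 8 did not overlap, where 85.6% of genes did not, so the count alone says little of these genes. The median of the 8 was 0.48, against 0.09 over all genes tested. Each call held with any single library left out.

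The composition of the set differed between the lines most at CCT8. Dividing each library by the geometric mean of its own 8 subunits, a scaling added after the data had been seen, gave a log2 level of CCT8 relative to that mean of -0.15, -0.14 and -0.14 in untreated HCT116 and of 0.39, 0.36 and 0.36 in untreated Ramos. Relative to the set, CCT8 was lower in HCT116 by -0.51 (adjusted p = 3.11e-06), CCT5 by -0.16 (adjusted p = 0.00562), and CCT4 and CCT3 were higher by 0.23 and 0.20 (adjusted p = 8.42e-04 and 8.54e-04). CCT6A, CCT7 and TCP1 were higher by 0.11, 0.09 and 0.09 and passed the test, though each of the 3 lost its call with some single libraries left out, and CCT2 was at -0.04 and was not called. Levels relative to the mean of the 8 are tied to each other, here and below. A lower CCT8 by itself raises those of the other subunits. Under this scaling 86.3% of all genes were called. CCT8 was thus the subunit with the largest difference between the lines relative to the other subunits.

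At 6 h with 2 μM Omomyc in HCT116, none of the 8 subunits was called by limma, where 47.3% of all genes tested were called, and none was called relative to the mean of the 8, where 44.6% were. 1 member had an unadjusted p under 0.05. The differences from untreated ran from -0.15 to 0.12, with adjusted p from 0.0808 to 0.962. CCT8 was at 239, 225 and 220 RPKM against 252, 249 and 254 untreated, CCT7 at 292, 262 and 261 against 296, 301 and 306, and CCT6A at 203, 194 and 202 against 191, 178 and 184. The treated libraries of CCT8, CCT7 and CCT6A lay wholly on one side of the untreated ones, as did those of CCT3, which makes 4 of 8 members, where 57.8% of genes did so. The median of the members was 0.01 while that of all genes was -0.12. With any of the scalings tried, the members' median stood 0.10 to 0.15 above that of all genes.

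At 6 h with 10 μM, all 8 subunits had lower mean levels and CCT8 passed the test. CCT8 was at 211, 198 and 162 RPKM, each below the untreated 252, 249 and 254, a log2 difference of -0.41 ± 0.12 (limma adjusted p = 0.0390). CCT3 was at 370, 364 and 248 RPKM against 422, 430 and 437 untreated, and CCT7 at 257, 261 and 173 against 296, 301 and 306. These groups did not overlap either, yet CCT3 with -0.41 (adjusted p = 0.0982) and CCT7 with -0.41 (adjusted p = 0.102) were not called. The others ran from TCP1 at -0.26 to CCT6A at -0.05. The median of the members was -0.25, and that of all genes was also below 0, at -0.11. The called share was 30% of all genes, 21.2% in the lower direction, and 7 of the 8 members did not overlap, where 50.2% of genes did not. The low replicate 3 is the library that stood apart. Without it CCT8 was at -0.30 (adjusted p = 0.00255), and CCT3 at -0.23 and CCT7 at -0.22 were then called as well (adjusted p = 0.00942 and 0.0101). The share of all genes called without this library is not given here. The CCT8 call was lost in 4 of 6 fits with a library left out (highest adjusted p = 0.139). With median-ratio scaling CCT8 was at -0.26 and was not called, CCT6A was at 0.10, and the members' median was -0.10 against 0.02 for all genes. With any of the scalings tried, the members' median differed from that of all genes by -0.18 to -0.12. Relative to the mean of the 8, where 29.9% of genes were called, no subunit was, and CCT8 was at -0.27, -0.34 and -0.24 against -0.15, -0.14 and -0.14 untreated.

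By 24 h in HCT116 the epsilon subunit CCT5 was higher at both doses. CCT5 was at 420, 428 and 402 RPKM after 2 μM and at 442, 450 and 409 after 10 μM, against 359, 365 and 361 untreated. Every treated library was above every untreated one. The means were 1.15 and 1.20 times the untreated mean, or higher by 0.20 ± 0.04 and 0.26 ± 0.06 on the log2 scale (limma adjusted p = 0.0101 and 0.00600), and the call held in every fit with 1 library left out (highest adjusted p = 0.0445 and 0.0292). Both comparisons used the same untreated libraries and are not independent of each other. The differences were 0.05 and 0.07 after rescaling to an equal sum, under which the medians of all genes were -0.10 and -0.14, and neither was then called. They were not called either when all HCT116 groups shared 1 estimate of spread.

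TCP1 and CCT4 each passed the test at 1 dose at 24 h. TCP1, the alpha subunit, was at 331, 332 and 321 RPKM after 2 μM against 306, 288 and 302 untreated, with no overlap and a log2 difference of 0.13 ± 0.04 (limma adjusted p = 0.0486). After 10 μM it was at 340, 336 and 315 RPKM, with a difference of 0.14 (adjusted p = 0.0655). CCT4 was at 202, 199 and 201 RPKM after 2 μM and at 217, 211 and 197 after 10 μM, against 187, 185 and 188 untreated. The treated libraries of CCT4 were all above the untreated ones at both doses, but only 10 μM was called (0.10, adjusted p = 0.0796, and 0.15 ± 0.05, adjusted p = 0.0409). The TCP1 call at 2 μM and the CCT4 call at 10 μM were each lost in 5 of 6 fits with a library left out, and both differences were below 0 after rescaling to an equal sum. In all, 2 of 8 members were called higher and 0 lower at each dose, where 27.3% and 35.2% of all genes were called and 16.6% and 19.5% were called higher. Libraries of 3 of the 8 did not overlap at either dose, where 44.9% and 49.3% of genes did not.

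The shift of CCT5 was also present relative to the other subunits. Its log2 level relative to the mean of the 8 was 0.37, 0.41 and 0.36 in untreated HCT116, 0.51, 0.54 and 0.50 after 2 μM for 24 h, and 0.52, 0.55 and 0.53 after 10 μM. The treated libraries were all above the untreated ones, by 0.14 (adjusted p = 0.0293) and 0.15 (adjusted p = 0.0184), where 26.7% and 35.2% of genes were called on this scale. These calls were lost in 4 of 6 and 2 of 6 fits with a library left out. No other subunit was called relative to the mean at 24 h in HCT116.

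**Figure D2:**
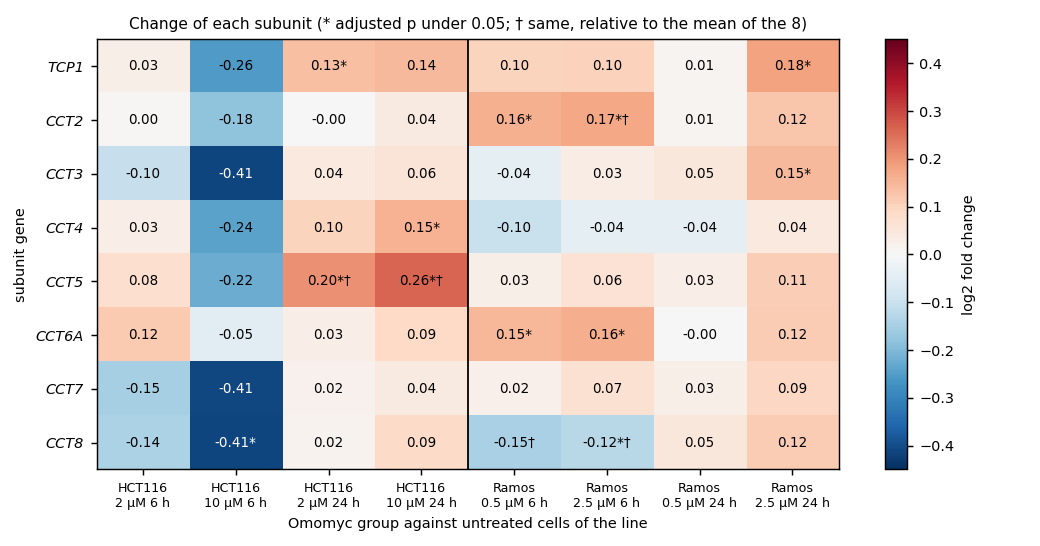
Log2 difference from untreated cells (colour and printed value) of the 8 subunits in the 8 treated groups; an asterisk marks limma adjusted p under 0.05 and a dagger the same test relative to the mean of the 8. CCT5 was marked in both HCT116 24 h groups, CCT2 and CCT6A in both Ramos 6 h groups, and the HCT116 10 μM 6 h column held the lowest values.

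In Ramos cells at 6 h, CCT2 and CCT6A were higher at both doses and CCT8 was lower at the higher one. CCT2, the beta subunit, was at 266, 259 and 252 RPKM after 0.5 μM and at 258, 262 and 265 after 2.5 μM, against 234, 225 and 237 untreated. All 6 treated libraries were above the 3 untreated ones, by 0.16 ± 0.04 and 0.17 ± 0.04 on the log2 scale (limma adjusted p = 0.0294 and 0.00987), or 11.7% and 12.8% of the mean. CCT6A, the zeta subunit, was at 145, 150 and 140 RPKM and at 143, 144 and 151 against 132, 127 and 132. It too was without overlap, with differences of 0.15 ± 0.04 and 0.16 ± 0.04 (adjusted p = 0.0371 and 0.0155). The CCT2 call at 2.5 μM held with any library left out (highest adjusted p = 0.0447), and that of CCT6A was lost only without Ramos 2.5 μM 6 h replicate 3, where it was 0.14 (adjusted p = 0.0624). At 0.5 μM the CCT2 call was lost in 5 of 6 such fits and the CCT6A call in 6 of 6.

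CCT8, the theta subunit, was at 258, 255 and 232 RPKM after 0.5 μM for 6 h and at 251, 251 and 253 after 2.5 μM, against 276, 272 and 274 in untreated Ramos cells. Each treated library was below each untreated one. The difference was -0.15 (adjusted p = 0.0659) and -0.12 ± 0.03 (adjusted p = 0.0266), and the latter, lost in 4 of 6 fits with a library left out, was 0.02 after rescaling to an equal sum, under which the median of all genes was 0.16. In all, 2 of 8 members were called at 0.5 μM and 3 at 2.5 μM, where 23.6% and 27.9% of all genes were called. The 2 called higher at each dose stand beside 13.8% and 17.3% of genes called higher, and the 1 called lower beside 10.7%. At both doses 6 of the 8 did not overlap, where 41.4% and 44.7% of genes did not.

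Relative to the mean of the 8, CCT8 was called lower in Ramos at both doses at 6 h. Its log2 level relative to that mean was 0.39, 0.36 and 0.36 in untreated libraries, 0.23, 0.22 and 0.15 after 0.5 μM and 0.19 in all 3 libraries after 2.5 μM. It was lower by -0.17 (adjusted p = 0.0280) and -0.18 (adjusted p = 0.00601), where 21.6% and 26.4% of genes were called on this scale. The second held with any library left out (highest adjusted p = 0.0347), and the first was lost in 5 of 6 such fits. CCT2 was at 0.14, 0.08 and 0.15 relative to the mean in untreated libraries and at 0.24, 0.24 and 0.26 after 2.5 μM, higher by 0.12 (adjusted p = 0.0444, lost in 5 of 6 fits). Untreated Ramos libraries had CCT8 above CCT2, and after 6 h at 2.5 μM every library had CCT2 above CCT8.

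**Figure D3:**
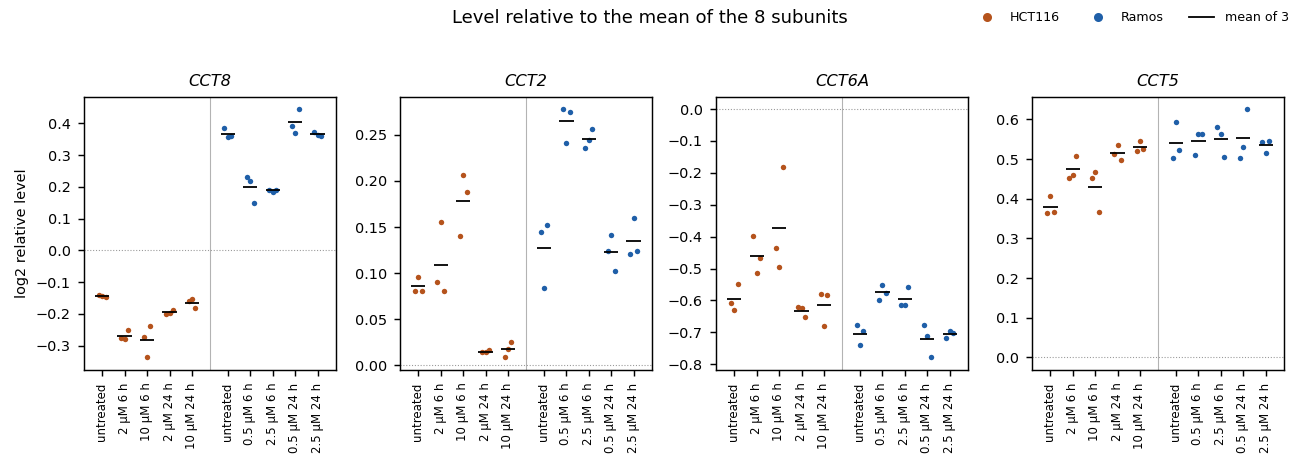
Log2 level of CCT8, CCT2, CCT6A and CCT5 relative to the geometric mean of the 8 subunits of the same library, by group; points are libraries, bars the mean of 3, and each panel has its own vertical scale. CCT8 in Ramos was near 0.37 in untreated and 24 h cells and near 0.20 at 6 h, and CCT5 in HCT116 was higher at 24 h than in untreated cells.

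At 24 h in Ramos cells 0 members were called at 0.5 μM and 2 at 2.5 μM. After 0.5 μM no member was called and 0 had an unadjusted p under 0.05, where 0.0146% of all genes were called. All 8 members overlapped the untreated libraries, where 11.5% of genes did not. CCT8 was at 277, 273 and 305 RPKM, CCT2 at 230, 233 and 240 and CCT6A at 132, 129 and 130. After 2.5 μM all 8 subunits had higher means, from 3.0% to 13.5%, and 2 were called higher, where 4.61% of all genes were called and 3.3% called higher. TCP1 was at 239, 246 and 247 RPKM against 216, 211 and 218 untreated, without overlap, a difference of 0.18 ± 0.04 (limma adjusted p = 0.0274). CCT3 was at 318, 318 and 315 RPKM against 286, 289 and 284, likewise without overlap, a difference of 0.15 ± 0.03 (adjusted p = 0.0432). The TCP1 call was lost in 5 of 6 and the CCT3 call in 6 of 6 fits with a library left out. CCT2, called at 6 h, was at 248, 259 and 252 RPKM, above every untreated library, and its difference of 0.12 did not pass the test (adjusted p = 0.102). CCT6A was at 139, 143 and 142 RPKM, likewise without overlap and at 0.12 (adjusted p = 0.111). 7 of the 8 did not overlap, where 27.4% of genes did not. An unadjusted p under 0.05 was found for 7 of the 8, but the share of all genes with one is not given here, so this count cannot be set against it. The 8 levels summed to 1943 ± 15.4 RPKM against 1785 ± 8.08 untreated. The median of the members was 0.12 and that of all genes 0.05, and no member was called relative to the mean of the 8, where 3.09% of genes were.

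Set directly against the 6 h groups, the 24 h Ramos groups had higher CCT8. The untreated group has no time point, so time in culture and a change in the effect of Omomyc cannot be told apart here. At 2.5 μM CCT8 rose from 251, 251 and 253 RPKM at 6 h to 295, 299 and 297 at 24 h, without overlap, by 0.24 ± 0.03 (limma adjusted p = 4.73e-04), and at 0.5 μM it rose by 0.20 (adjusted p = 0.0337). The call at 2.5 μM held with each library left out and under every alternative tried, and the one at 0.5 μM was lost in 3 of 6 such fits. Relative to the mean of the 8 the rise at 2.5 μM was 0.18 (adjusted p = 0.00187), where 25% of genes were called. At 0.5 μM CCT2 fell by 0.15 (adjusted p = 0.0314) and CCT6A by 0.15 (adjusted p = 0.0274), each lost in 4 of 6 fits, and at 2.5 μM CCT3 rose by 0.11 (adjusted p = 0.0186, lost in 3 of 6). At 2.5 μM CCT2 and CCT6A were each at -0.05 and were not called (adjusted p = 0.28 and 0.324). Of the 8 members 3 were called at 0.5 μM and 2 at 2.5 μM, where 25.4% and 23% of all genes were called.

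In HCT116 the times did not differ past the threshold for any member. At 10 μM all 8 had higher means at 24 h than at 6 h and no library overlapped, where 38.2% of genes did not overlap. The median of the members was 0.42 and that of all genes 0.15. Of the 8, 6 had an unadjusted p under 0.05, and the share of all genes with one is not given here. None was called (lowest adjusted p = 0.0594, CCT8 at 0.50), where 7.86% of all genes were called. Without the 6 h replicate 3 that stood apart, 5 of the 8 were called. The share of all genes called in that fit is not given here, and the 7.86% belongs to the fit with all libraries. At 2 μM 0 members were called and 2 had an unadjusted p under 0.05, where 40.8% of genes were called.

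The doses within a line and time did not differ past the threshold for any of the 8 genes. In HCT116 at 6 h all 8 means were lower at 10 than at 2 μM, with differences from -0.31 to -0.17, but 0 members had an unadjusted p under 0.05 and 0% of all genes were called. At 24 h in HCT116 the differences ran from 0.01 to 0.07, with 0 at an unadjusted p under 0.05 and 0.18% of genes called. In Ramos 0.429% of genes were called at 6 h and 4.25% at 24 h, and 0 and 4 members had an unadjusted p under 0.05. These p-values do not show that the doses acted alike.

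The change from untreated was compared between the lines at the nearest doses, 2 μM as labelled in HCT116 and 2.5 μM in Ramos. At 6 h CCT7, the eta subunit, differed. It was at 292, 262 and 261 RPKM in HCT116 against 296, 301 and 306 untreated, and at 228, 226 and 225 in Ramos against 211, 216 and 222. The HCT116 libraries fell below their controls and the Ramos ones lay above theirs, a difference of the differences of -0.22 ± 0.07 (limma adjusted p = 0.0244). The median difference of all genes was -0.14, 40.6% of them were called, and the CCT7 value was -0.07 and not called with median-ratio scaling. At 24 h 0 members were called and 3 had an unadjusted p under 0.05, where 16.3% of genes were called, so the CCT5 difference of HCT116 at 24 h was not shown to differ from that of Ramos.

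Across the 10 group means, centred within each line, the subunits did not all follow one another. The Pearson correlation of a subunit with the mean of the other 7 was 0.960 for TCP1, 0.957 for CCT3, 0.950 for CCT7, 0.945 for CCT5 and 0.937 for CCT4, but 0.817 for CCT8, 0.738 for CCT2 and 0.478 for CCT6A. CCT3 and CCT7 had a correlation of 0.970 with each other and CCT2 and CCT6A one of 0.889, while CCT6A and CCT8 had 0.0966. These are descriptions over group means that share untreated libraries and library scaling, and the HCT116 10 μM 6 h group weighs on them. Of 9221 genes ranked, the 5 outside the set with the profile most like the mean of the 8 were KARS (r = 0.973), a lysyl-tRNA synthetase, VDAC2 (0.972), a channel of the outer mitochondrial membrane, PPM1G (0.967), a protein phosphatase, ISY1 (0.967), a spliceosome component, and RBM45 (0.965), an RNA-binding protein.

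Several of the genes have a neighbour that starts close by on the other strand, and in several groups one gene of a pair was called while the other was not. Distances are between GENCODE starts, not the RefSeq starts of the promoter windows. FAM173B, which encodes a protein lysine methyltransferase and starts 24 bp from CCT5, was at 12.3, 13.2 and 13.9 RPKM in untreated HCT116, at 7.81, 7.60 and 7.71 after 2 μM for 6 h and at 7.49, 8.12 and 7.83 after 10 μM. It fell by 0.73 (limma adjusted p = 1.40e-04) and 0.71 (adjusted p = 0.00300) on the log2 scale, with no overlap, while CCT5 was at 0.08 and -0.22 and was not called. After 2 μM for 24 h FAM173B was at -0.23 (adjusted p = 0.0338, lost in 4 of 6 fits with a library left out), where CCT5 was called higher by 0.20. PSPH, the phosphoserine phosphatase of serine synthesis, starts 26 bp from CCT6A. In Ramos it was at 26.7, 25.3 and 27.8 RPKM untreated, at 18.7, 20.2 and 20.4 after 0.5 μM for 6 h and at 21.0, 19.9 and 21.7 after 2.5 μM. PSPH fell by 0.42 (adjusted p = 0.00179) and 0.34 (adjusted p = 0.00330) where CCT6A was called higher by 0.15 and 0.16. In HCT116 at 6 h PSPH was at -0.35 (adjusted p = 0.0316, lost in 4 of 6 fits) and -0.43 (adjusted p = 0.0375, lost in 5 of 6), with CCT6A at 0.12 and -0.05 and not called. PRADC1, which starts 182 bp from CCT7, rose in HCT116 at 24 h by 0.38 (adjusted p = 0.00777) and 0.60 (adjusted p = 0.00168), with CCT7 at 0.02 and 0.04. MRPL18, a mitochondrial ribosomal protein gene 63 bp from TCP1, rose by 0.23 (adjusted p = 0.00831) in HCT116 after 10 μM for 24 h, where TCP1 was at 0.14 (adjusted p = 0.0655). COMMD1, 80 bp from CCT4, was called in none of the 8 treated groups, and MIR3913-1, which starts 511 bp from CCT2, was listed at 0 in every library. The difference between the partners of a pair was not tested.

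**Figure D4:**
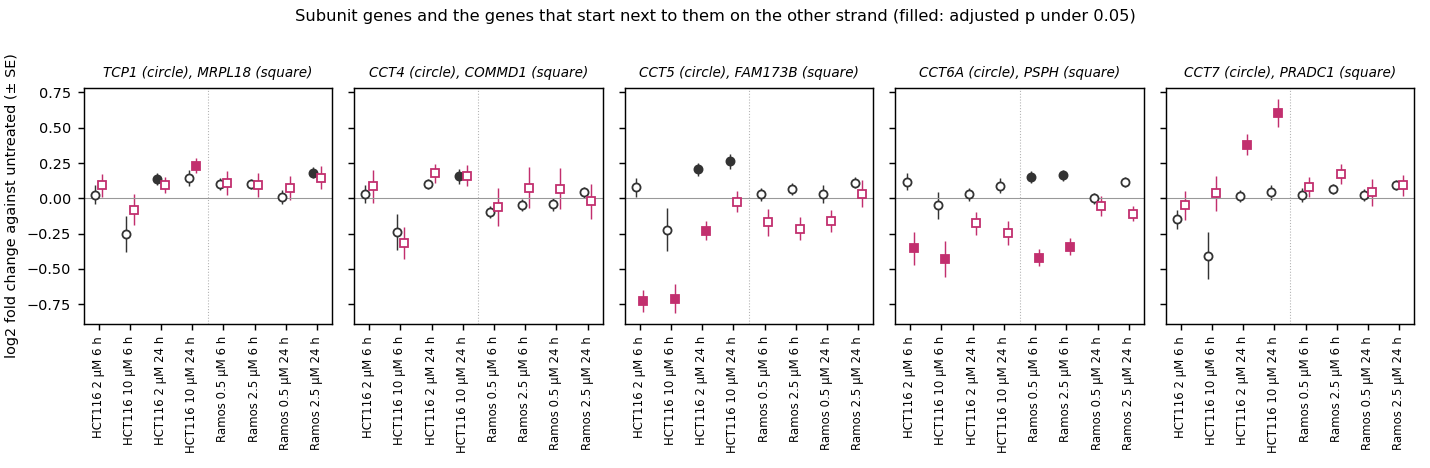
Log2 difference from untreated cells ± SE of 5 subunit genes and of the gene that starts within 1 kb on the other strand, in the 8 treated groups; filled points have limma adjusted p under 0.05. FAM173B lay well below CCT5 in both HCT116 6 h groups, and PSPH below CCT6A in both Ramos 6 h groups.

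SNORA20, a small nucleolar RNA inside TCP1 on the same strand, was higher in treated HCT116 cells. It was at 0.194, 0 and 0.572 RPKM untreated, at 6.40, 7.04 and 10.5 after 2 μM for 6 h, at 10.6, 4.78 and 3.65 after 10 μM for 6 h, at 7.88, 1.89 and 6.80 after 2 μM for 24 h and at 0.782, 1.51 and 3.26 after 10 μM for 24 h. Every treated library was above every untreated one. On the log2(RPKM + 0.5) scale, which understates changes of low genes, it was higher by 3.53 (limma adjusted p = 3.15e-05), 3.12 (adjusted p = 0.00225), 2.87 (adjusted p = 0.00282) and 1.57 (adjusted p = 0.0116). The 4 calls held with any library left out. In Ramos it was at 0.478, 2.87 and 0 untreated and was called in none of the treated groups. SNORA20 lies within the span of a host gene near 300 RPKM and its own RPKM rests on a short length, so reads of the host and of the small RNA may be shared between them, and its values are uncertain. SNORA29, the other small RNA inside TCP1, was listed at 0 in every library. Inside CCT6A on its strand, SNORA22B and SNORA15 reached at most 1.39 and 0.553 RPKM in any library. AF129075.1, inside CCT8 on its strand, reached at most 3.58 RPKM. Differences of these genes between groups are not described here. The 9 pseudogenes of the subunits in the table were at most at 1.17 RPKM in any library, against 113 or more for the genes. COMMD1, ACAT2 and TSACC overlap the spans of CCT4, TCP1 and CCT3 on the other strand, and the kit kept strand while the counting setting is not given in the sources used here.

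Of prefoldin, which hands unfolded actin and tubulin to the chaperonin, 4 of 6 subunits rose in HCT116 at 2 μM for 6 h, where 0 chaperonin genes and 47.3% of all genes were called. They were PFDN2 by 0.49, PFDN4 by 0.44, PFDN1 by 0.39 and PFDN5 by 0.31 (limma adjusted p = 0.00522, 0.0180, 0.00420 and 0.0181), and the calls of PFDN4 and PFDN5 were each lost in 2 of 6 fits with a library left out. VBP1 was at 0.14 and PFDN6 at -0.14, neither past the test, and the list's median was 0.35 against -0.12 for all genes. After rescaling to an equal sum PFDN5 was at -0.03. At 10 μM for 6 h 0 of 6 were called beside 30% of all genes, and at 24 h 1 and 2 were beside 27.3% and 35.2%. In Ramos 0 were called in any group, beside 23.6% and 27.9% of all genes at 6 h and 0.0146% and 4.61% at 24 h. The change at 6 h was higher in HCT116 than in Ramos at the nearest doses for 4 of 6, by the test of the difference, in which 40.6% of all genes were called. HSPE1, the co-chaperonin of the mitochondrial chaperonin, rose by 0.76 (adjusted p = 6.56e-04) at 2 μM for 6 h, and its partner HSPD1 was at -0.06 (adjusted p = 0.52).

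The cytosolic heat shock list holds HSF1 and chaperones of the HSP70, HSP90 and HSP40 families. In HCT116 4 of 10 were called higher and 1 lower at 2 μM for 6 h, 0 at 10 μM for 6 h, 5 higher at 2 μM for 24 h and 6 higher at 10 μM for 24 h, beside 47.3%, 30%, 27.3% and 35.2% of all genes called in either direction. HSPA1B, an inducible HSP70, was at -0.24 (adjusted p = 0.00953) at 2 μM for 6 h and higher by 0.61 and 0.62 at 24 h (adjusted p = 1.82e-04 and 2.48e-05). In Ramos 2 of 9 tested were called higher and 1 lower at 6 h at each dose, beside 23.6% and 27.9% of all genes. At 24 h 0 were called, beside 0.0146% and 4.61% of all genes. By the test of the difference between the lines at the nearest doses, 4 of 10 were called at 6 h, where 40.6% of all genes were, and 1 of 10 at 24 h, where 16.3% were. HSPA1B rose in Ramos at 6 h by 0.58 and 0.48 (adjusted p = 6.51e-04 and 0.00170) and DNAJB1, an HSP40 co-chaperone, by 0.53 and 0.51 (adjusted p = 7.07e-04 and 4.57e-04). DNAJB1 was higher in HCT116 too, by 0.43 at 2 μM for 6 h (adjusted p = 5.83e-04) and by 0.27 and 0.29 at 24 h (adjusted p = 0.00287 and 0.00597). It was not called at 10 μM for 6 h.

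Among the actins and tubulins, the main clients, members moved in both directions. In HCT116 at 2 μM for 6 h 7 of 13 were called higher and 2 lower, beside 47.3% of all genes called in either direction, and TUBA1A, an alpha-tubulin, fell by 0.93 (adjusted p = 3.37e-05) while TUBB4B, a beta-tubulin, rose by 0.43 (adjusted p = 7.26e-04). At 10 μM for 6 h 0 were higher and 2 lower (30% of all genes), with TUBA1A lower by -1.10 (adjusted p = 0.00452), and at 24 h 5 were higher and 2 lower at each dose (27.3% and 35.2% of all genes), with ACTG1, cytoplasmic gamma-actin, at -0.36 in both. In Ramos at 6 h 7 of 12 tested were higher and 3 lower at 0.5 μM, and 7 higher and 2 lower at 2.5 μM, beside 23.6% and 27.9% of all genes. ACTG1 was among the lower ones at both doses, at -0.38 and -0.33 (adjusted p = 0.00126 and 0.00125). TUBB3, a beta-tubulin best known from neurons, rose in Ramos at 6 h by 1.26 and 1.46 (adjusted p = 6.50e-05 and 2.20e-05), and it was at -0.45 in HCT116 at 2 μM for 6 h (adjusted p = 2.85e-04). At 24 h 0 were called at 0.5 μM in Ramos and 4 higher at 2.5 μM, beside 0.0146% and 4.61% of all genes.

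Of 5 WD40-repeat clients, CDC20, an activator of the anaphase-promoting complex, rose in HCT116 at 24 h by 0.33 and 0.36 (adjusted p = 0.00785 and 9.42e-04). It was also called higher in HCT116 at 2 μM for 6 h. In Ramos CDC20 fell at 6 h by 0.36 and 0.33 (adjusted p = 0.00956 and 0.0119). Its change at 6 h was called higher in HCT116 than in Ramos at the nearest doses, by the test of the difference. GNB1, a G protein beta subunit, fell in HCT116 at 24 h by 0.33 and 0.42 (adjusted p = 0.00312 and 0.00150). In Ramos at 6 h GNB2, another beta subunit, rose by 0.34 and 0.47 (adjusted p = 0.0116 and 0.00527) and MLST8, a subunit of the mTOR complexes, by 0.36 and 0.29 (adjusted p = 0.0192 and 0.0360), and GNB1 rose at 2.5 μM by 0.15 (adjusted p = 0.0380). In all 3 of the 5 were called at 0.5 μM and 4 at 2.5 μM for 6 h in Ramos, beside 23.6% and 27.9% of all genes, and 1, 0, 3 and 2 in HCT116 at 2 and 10 μM for 6 h and at 2 and 10 μM for 24 h, beside 47.3%, 30%, 27.3% and 35.2%. Of the phosducin-like co-chaperones 3 of 4 were tested. At 2 μM for 6 h in HCT116 PDCL3 rose by 0.45 (adjusted p = 0.00406) and PDCL fell by 0.40 (adjusted p = 0.00225), and in the other HCT116 groups 1, 0 and 1 of the 3 were called, in the same order. In Ramos 1 of the 3, PDCL3, was called higher at 6 h at each dose. Of the tubulin folding cofactors 4 of 5 were tested, and in Ramos at 6 h 2 were called higher at each dose, TBCB among them at 0.52 and 0.53, while in HCT116 1, 1, 0 and 1 were called lower. At 24 h in Ramos 0 members of these lists were called, where only 0.0146% and 4.61% of all genes were called at 0.5 and 2.5 μM. Of 4 genes related to the subunits, CCT6B, MKKS, BBS10 and BBS12, 3 were called lower in HCT116 at 2 μM for 6 h and 1 in each other HCT116 group, and 0 were called in Ramos. CCT6B, the zeta subunit found mainly in testis, fell in HCT116 at 6 h by 0.68 and 0.75 (adjusted p = 0.0132 and 0.0148), where CCT6A was at 0.12 and -0.05 and was not called.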

How the data were processed

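Total RNA depleted of rRNA was sequenced as stranded libraries from 30 samples. The authors deposited RPKM per gene and library. RSEM is named, with no version, in the submitters' processing notes. The aligner, genome build, annotation and filters are not given in the sources used here. Low values fall on steps of whole reads, which give relative depth only, so no count model was used and depth limits precision to an unknown degree. All columns were used (0 left out). By Ensembl ID 57388 of 57992 genes matched GENCODE 29 and 604 did not. No 2 libraries were identical (0 pairs), and replicates correlated at 0.973 to 0.996.

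Log2(RPKM + 0.5) values were fitted in limma 3.58.1 (R 4.3.3) with a mean-variance trend, using the libraries of the groups compared and no block. Genes averaging below 0.5 RPKM in those libraries were left out. P-values are two-sided and Benjamini-Hochberg adjusted over all genes tested, with 0.05 as the threshold. Shares of all genes with an unadjusted p under 0.05 are not given, so counts of members at that level cannot be set against them. A two-sided exact permutation test of 3 against 3 cannot go below 0.1. The 19 comparisons were 8 of treated with untreated cells, 4 between times, 4 between doses, 1 between the untreated lines and 2 of the change between lines. The scripts were tested on simulated data. Other steps used Python 3.11.15, pandas 2.3.3, scipy 1.17.1 and matplotlib 3.10.9.

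All 8 subunits are named. Named beside them are members of the related lists past the threshold, genes starting within 1 kb on the other strand, genes inside a subunit gene on its strand, pseudogenes by symbol, and the 5 genes with the most similar profile among those at a mean RPKM of 2 or more in each line. Members and lists were chosen with earlier results of these data known. Alternatives were a pseudocount of 1, no filter, median-ratio scaling, rescaling to an equal sum, a replicate block, all groups of a line in 1 fit, and each library left out, which leaves groups of 2. Dividing by the geometric mean of the 8 was added after seeing the data. Replicate numbers were not taken to pair the libraries (every pair of same-numbered libraries correlated above 0.1 in 0 of 17 comparisons). Low correlations cannot exclude a shared culture or batch.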

Additional observations from a re-analysis of the deposited data

Results flagged for a closer look

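In Ramos cells treated with Omomyc some subunits differed between 6 and 24 h, by the direct test of the difference between times (limma, adjusted p under 0.05). That test is what singled these results out. It called 3 of 8 members at 0.5 μM and 2 of 8 at 2.5 μM, beside 25.4% and 23% of all genes, so the counts alone say little of these genes. The untreated group has no time point, so time in culture and a change in the effect of Omomyc cannot be told apart. At 0.5 μM the log2 difference of 24 h from 6 h was -0.15 for CCT2 (-0.146), -0.15 for CCT6A (-0.150) and 0.20 for CCT8 (0.199). At 2.5 μM it was 0.11 for CCT3 (0.113) and 0.24 for CCT8 (0.239). With a library left out, the calls of CCT2 and CCT6A at 0.5 μM were each lost in 4 of 6 fits. Those of CCT8 at 0.5 μM and CCT3 at 2.5 μM were each lost in 3 of 6, and that of CCT8 at 2.5 μM held. CCT8 was therefore higher at 24 than at 6 h at both doses, with every 24 h library above every 6 h library of the same dose.

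The change of CCT7 from untreated cells at 6 h differed between HCT116 and Ramos by -0.22 (-0.216), by a test of the difference itself. It was not called without HCT116 untreated replicate 3, without Ramos untreated replicate 1 or without Ramos 2.5 μM 6 h replicates 1 or 2, where the highest adjusted p was 0.0569.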

How the results depend on the processing

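The pseudocount of 1 moved no count of called members by more than 1.5 times. Shares of all genes called under the settings of this section, fits with 1 library left out included, are not given here. The counts therefore cannot be set against them. At HCT116 10 μM 6 h, rescaling to an equal sum moved the median of all genes from -0.11 to -0.56. Settings other than this pseudocount moved counts (of 8 members) as follows, and the cause was not tested. Rescaling to an equal sum, which moved the median of all genes at HCT116 2 μM 6 h from -0.12 to -0.42, gave 7 called at HCT116 2 μM 6 h and 8 at 10 μM 6 h, all lower, 0 at both HCT116 24 h groups, 6 and 1 for 24 against 6 h at 2 and 10 μM, 6 and 8 at Ramos 2.5 μM 6 and 24 h, 0 and 4 for 24 against 6 h at 0.5 and 2.5 μM, 6 for the Ramos doses at 24 h, and 8 for each difference between lines. Median-ratio scaling gave 2 at HCT116 2 μM 6 h, 0 at 10 μM 6 h, 1 at each 24 h group, 1 for 24 against 6 h at 2 μM, 1 at Ramos 0.5 μM 6 h and 0 at 2.5 μM 24 h. No filter gave 0 at HCT116 10 μM 6 h, 1 at each HCT116 24 h group, 0 at Ramos 0.5 μM 6 h and 2.5 μM 24 h, and 1 for 24 against 6 h at 0.5 μM. All groups in 1 fit gave 5 at HCT116 10 μM 6 h, 0 at each HCT116 24 h group, 6 for 24 against 6 h at 10 μM, 4 at Ramos 2.5 μM 24 h, 1 for the Ramos doses at 24 h and 0 for the difference between lines at 6 h.

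The replicate block gave 0 at HCT116 10 μM 6 h, 1 at each HCT116 24 h group, 1 at Ramos 0.5 μM 6 h, 0 at 2.5 μM 24 h, 1 for 24 against 6 h at 0.5 μM and 0 for the difference between lines at 6 h, and moved no other count by more than 1.5 times. Same-numbered libraries had mean correlations of -0.177 to 0.0968, and a single pair reached 0.177 between the HCT116 doses at 24 h. These values did not show a pairing, and they cannot exclude a shared culture or batch.

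With 1 library left out, counts ran from 0 to 2 at HCT116 2 μM 6 h (2 without its replicate 1), 0 to 3 at 10 μM 6 h (3 without its replicate 3), 1 to 2 at 2 μM 24 h, 1 to 4 at 10 μM 24 h (4 without its replicate 3), 0 to 1 and 0 to 5 for 24 against 6 h at 2 and 10 μM, 0 to 1 at Ramos 0.5 μM 6 h, 1 to 3 at 2.5 μM 6 h, 0 to 1 at 2.5 μM 24 h, 0 to 2 and 1 to 2 for 24 against 6 h at 0.5 and 2.5 μM, 0 to 1 for the Ramos doses at 24 h (1 without 0.5 μM 24 h replicate 3) and 0 to 3 for the difference between lines at 6 h (3 without HCT116 2 μM 6 h replicate 1).

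Signs changed after rescaling to an equal sum at HCT116 2 μM 6 h for TCP1 (-0.31), CCT2 (-0.33), CCT4 (-0.31), CCT5 (-0.26), CCT6A (-0.22) and PFDN5 (-0.029), at 2 μM 24 h for TCP1 (-0.022), at 10 μM 24 h for TCP1 (-0.043), CCT4 (-0.033) and CCT8 (-0.10), for CCT6A between times at 2 μM (0.095), for CCT8 at Ramos 2.5 μM 6 h (0.016) and between untreated lines (0.45), and for the difference between lines in CCT4 (-0.40) and CCT5 (-0.47) at 6 h and CCT4 (-0.30) and CCT5 (-0.27) at 24 h. With median-ratio scaling they changed for CCT3 at HCT116 2 μM 6 h (0.029), CCT6A at 10 μM 6 h (0.10), CCT3 at Ramos 2.5 μM 6 h (-0.00331), CCT4 at 2.5 μM 24 h (-0.014), between HCT116 times at 2 μM for TCP1 (-0.06), CCT3 (-0.024), CCT4 (-0.097), CCT5 (-0.041), CCT7 (-0.00124) and CCT8 (-0.00936), and between lines at 6 h for TCP1 (0.063), CCT3 (0.00481), CCT6A (0.094) and CCT8 (0.12). With 1 library left out the difference at HCT116 2 μM 6 h ran from -0.019 to 0.064 for TCP1, from -0.059 to 0.037 for CCT2 and from -0.015 to 0.058 for CCT4, and that between lines at 6 h from -0.021 to 0.045 for CCT5 and from -0.055 to 0.0070 for CCT8. Of 152 member results 62 were called in no setting, and 31 of those changed sign in at least 1.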
